A study of Mus musculus with 2 samples.

Results

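Classical MHC class I molecules and the machinery that loads them with peptide are described here through 10 genes, chosen by symbol and all found among the 25791 genes of the deposited tables: H2-K1, H2-D1, B2m, Tap1, Tap2, Tapbp, Nlrc5, Erap1, Calr and Pdia3. Proteasome subunits were not part of the choice. Their RNA was measured in thymic epithelial cells of fetal thymus at 15 days post coitum, sorted as EpCAM positive and as negative for CD45 and PDGFRa. The library titled B6J came from C57BL/6 mice, and for the library titled humanCD3eTg the strain is given as C57BL/6J x CBA/J, so each group holds 1 library. The study asks how the epithelium differs with and without thymocytes. The treatment label of humanCD3eTg reads presence of thymocytes and that of B6J reads absence, although mice with many copies of human CD3E are generally known to lack T cells. Thymocyte transcripts went against these labels: Cd3e stood at 10.6 FPKM in B6J and at 1.08 FPKM in humanCD3eTg. Libraries are therefore named by their titles throughout. The labels do not state how many animals were pooled, or the promoter and copy number of the transgene.

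A class I molecule is a heavy chain, encoded by H2-K1 or H2-D1 in the mouse, paired with beta-2 microglobulin (B2m). Peptides made in the cytosol are carried into the endoplasmic reticulum (ER) by the transporter TAP, trimmed there by the aminopeptidase Erap1, and fitted into the groove by a loading complex in which tapasin (Tapbp) bridges TAP to the heavy chain with the help of calreticulin (Calr) and the disulfide isomerase ERp57 (Pdia3). Nlrc5 encodes a transactivator of class I genes, and interferon is their classical inducer. In the thymus, class I molecules on epithelial cells present the peptides on which CD8 T cells are selected.

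Promoter sequences are shown first, since class I promoters are known for a set of shared elements through which NF-kB, IRF factors and the Nlrc5 transactivator act, and ER chaperone promoters for another. RefSeq windows of build GRCm38.p6, from 250 bases before to 50 bases after a transcript start, were found for 8 of the 10 members, and Tap2 and Nlrc5 were not among them. Letters were searched on both strands: the interferon-stimulated response element (ISRE) as GAAA, any 2 bases and GAAA, the shorter core bound by IRF factors as AANNGAAA, a kappa B site as GGG, any 2 bases, TT, any 1 base and CC, a CRE core as TGACG, the CCAAT box as CCAAT, and the ER stress element as CCAAT, any 9 bases and CCACG. The IRF core lies inside the ISRE and a CCAAT box inside the ER stress element. The IRF core was not among the letters first planned, and H2-K1 and H2-D1 held it without the full ISRE. The count of windows with the combination below is therefore a description only. The heavy chain genes and B2m held the IRF core, the kappa B letters, the CRE core and the CCAAT box together, a combination found in 33 of 32851 windows. The stretches that hold them are chr17:34000330-34000463 on the minus strand for H2-K1, chr17:35262918-35263050 on the plus strand for H2-D1 and chr2:122147543-122147643 on the plus strand for B2m. RefSeq gives H2-K1 a pair of overlapping windows, and the first is shown. The sequences run 5′ to 3′ with the matches in capitals, for B2m those of the full ISRE around its IRF core too.
H2-K1: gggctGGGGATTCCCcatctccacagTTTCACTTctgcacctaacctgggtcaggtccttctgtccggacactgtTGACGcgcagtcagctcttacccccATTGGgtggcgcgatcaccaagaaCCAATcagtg
H2-D1: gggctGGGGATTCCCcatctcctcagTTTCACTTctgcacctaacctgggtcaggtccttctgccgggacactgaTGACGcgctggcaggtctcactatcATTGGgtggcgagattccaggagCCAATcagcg
B2m: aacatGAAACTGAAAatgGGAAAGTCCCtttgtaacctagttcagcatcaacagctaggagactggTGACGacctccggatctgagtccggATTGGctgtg

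In H2-K1 and H2-D1 the blocks ran in the same order, and their windows were identical at 211 of 239 aligned bases (88.3%). Alone, the kappa B letters were found in 4.79% of all windows, the IRF core in 23.9%, the CRE core in 20.8% and the CCAAT box in 37.4%. The full ISRE, found in 3.44% of windows, was present in B2m and in Erap1, where it overlapped the transcript start at chr13:74639844-74639863 on the plus strand. Calr held the IRF core at 2 places, without the full ISRE. It also held the ER stress element, found in 39 of 32851 windows (0.119%), as did Canx, which encodes calnexin, the membrane-bound relative of calreticulin, and Hspa5, which encodes the ER chaperone BiP. These stretches, chr8:84847070-84847098 on the minus strand, chr11:50325795-50325823 on the minus strand and chr2:34772020-34772048 on the plus strand, show the element in capitals beside the ISRE of Erap1.
Erap1: ttcacTTTCACTTTCggtcc
Calr: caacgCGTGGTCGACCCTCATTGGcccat
Canx: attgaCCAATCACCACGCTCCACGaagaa
Hspa5: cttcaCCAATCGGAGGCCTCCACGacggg

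Pdia3 held CCAAT boxes and a CRE core, Tap1 1 of each, and Tapbp CCAAT boxes alone among these letters. A match describes letters in a window and is neither a bound site nor a cause.

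All values below are FPKM (a gene's fragments divided by the length of its transcript and by all mapped fragments of the library), a scale per length on which genes can be compared within a library. Since a group is 1 library, there were no replicates, and no test was possible. Ratios are log2 of FPKM + 1 in humanCD3eTg over B6J, and folds are of plain FPKM. About 20200000 fragments were estimated behind B6J and about 15600000 behind humanCD3eTg. Intervals are 95% exact (Clopper-Pearson) intervals of the ratio of estimated fragments, and they cover counting error only, not the spread between mice or sorts.

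All 10 members were lower in humanCD3eTg. A mean level of 1 FPKM or more was reached by 9 of them, and those 9 also reached 1 FPKM in each library, so none entered through B6J alone. At least 2-fold lower on FPKM + 1 were 7 of the 9, where 4.47% of 13493 genes with such a mean were 2-fold lower (2.92% of 9307 genes whose mean reached 5 FPKM). None was 2-fold higher, against 2.10% of all genes, and 55.4% of all genes were lower by any amount. H2-K1, H2-D1 and Tap1 were at least 4-fold lower, as were 1.27% of all genes. The median log2 ratio was -1.53 over the 9 members and -0.05 over all 13493 genes.

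**Figure D1:**
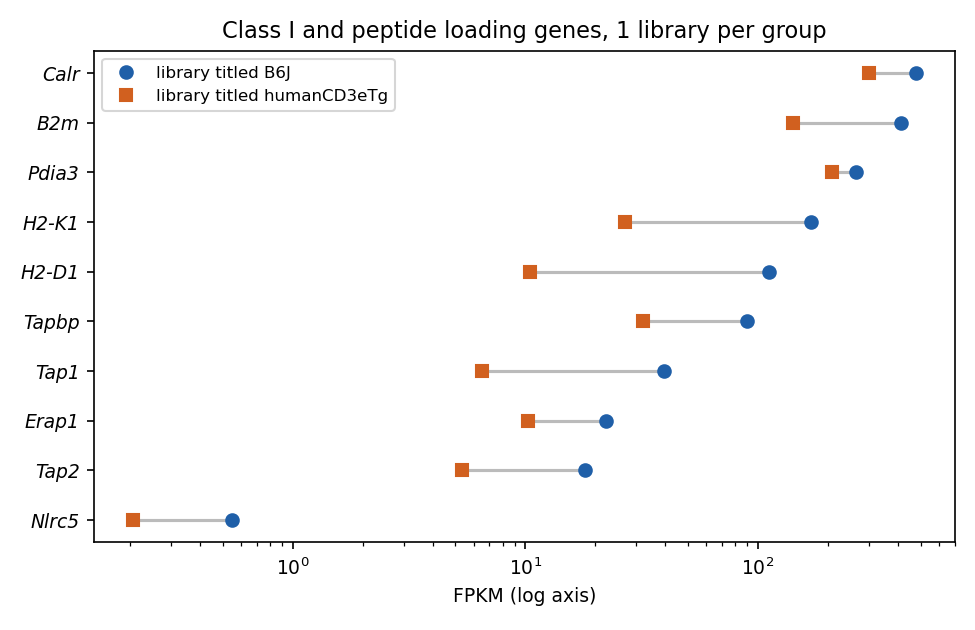
FPKM of the 10 members in each library (log axis, 1 point per library, lines join the points of a gene). Every humanCD3eTg point lies to the left of its B6J point, with the widest gap for H2-D1 (111 and 10.5 FPKM) and the narrowest for Pdia3 (264 and 209 FPKM).

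The heavy chains showed the largest differences. H2-D1 stood at 111 FPKM in B6J and at 10.5 FPKM in humanCD3eTg, a log2 ratio of -3.29. This is 10.6-fold lower (9.47 to 12), and 0.348% of the genes used had a ratio as low or lower. H2-K1 stood at 169.6 and 26.8 FPKM (log2 ratio -2.62), 6.32-fold lower (5.81 to 6.90). In rank among all 25791 genes, H2-K1 went from 589 to 3099 and H2-D1 from 885 to 6359. B2m, the light chain that every class I heavy chain needs, stood at 410.0 and 142 FPKM (log2 ratio -1.53), 2.89-fold lower (2.73 to 3.07). The light chain was thus less reduced than its partners: summed FPKM of H2-K1 and H2-D1 came to 0.685 of the B2m level in B6J and to 0.263 in humanCD3eTg. In such bulk RNA, fewer cells of a type and less RNA per cell cannot be told apart.

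The part of strain and of shared reads in the heavy chain values was not tested. C57BL/6 and CBA/J mice are known to carry different H-2 haplotypes, so strain and group cannot be told apart. Whether reads of heavy chain and other MHC genes of different haplotypes aligned equally well to build mm9 was not tested. The counting intervals do not cover this. The heavy chain transcripts also resemble those of other class I genes. Of the windows of 50 bases in the longest coding transcript, 14.3% in H2-D1 and 8.79% in H2-K1 occurred in transcripts of another gene, most often H2-Q1 for H2-D1 and H2-D1 for H2-K1. The way the authors' counting treated such reads is not given in the sources used here, so the levels of H2-K1 and H2-D1 are uncertain. For the other members this share was lower, with Tapbp at 57 of 2849 windows, and it was 0 for B2m, Nlrc5, Erap1 and Pdia3. B2m, Erap1, Calr, Pdia3 and Nlrc5 lie outside the MHC, on chromosomes 2, 13, 8, 2 and 8. The 5 members in the MHC on chromosome 17 ranged from -3.29 to -1.45 in log2 ratio, with a median of -2.43. Each of the 5 passed the limit of 2-fold, and 3 of them passed 4-fold. The 4 outside it that reached a mean of 1 FPKM ranged from -1.53 to -0.34, with a median of -0.85, where 2 of the 4 passed 2-fold and none passed 4-fold. The ranges overlapped only in that B2m lay below Tapbp. Of the 4 outside, Calr (-0.67) and Pdia3 (-0.34) are general ER chaperones, while B2m stood at -1.53 and Erap1 at -1.04. Place and function can therefore not be told apart in this split.

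The peptide transporter was lower in both subunits, and by unequal amounts. Tap1 stood at 39.6 FPKM in B6J and at 6.52 FPKM in humanCD3eTg (log2 ratio -2.43), 6.07-fold lower (5.36 to 6.90). Tap2 stood at 18.1 and 5.32 FPKM (log2 ratio -1.59), 3.40-fold lower (2.98 to 3.90). TAP works as a heterodimer of these subunits. Tap1 RNA stood at 2.19 times the Tap2 level in B6J and at 1.22 times in humanCD3eTg.

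Tapasin and the ER aminopeptidase were reduced less than the transporter and the heavy chains. Tapbp stood at 89.3 and 32.1 FPKM (log2 ratio -1.45), 2.78-fold lower (2.62 to 2.96). Its level was 2.26 times that of Tap1 in B6J and 4.92 times in humanCD3eTg. Erap1 stood at 22.1 and 10.3 FPKM (log2 ratio -1.04), 2.15-fold lower (1.99 to 2.33), the smallest difference among the members past 2-fold.

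The general ER chaperones of the loading complex differed least. Calr stood at 476 FPKM in B6J and at 299 FPKM in humanCD3eTg (log2 ratio -0.67), 1.59-fold lower (1.55 to 1.63). Pdia3 stood at 264 and 209 FPKM (log2 ratio -0.34), 1.27-fold lower (1.23 to 1.30), and 22.4% of the genes used had a ratio as low or lower. Calr was the most abundant member in each library. Pdia3 passed B2m in humanCD3eTg, where B2m moved from the second place among the members to the third.

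The transactivator was scarce. Nlrc5 stood at 0.548 FPKM in B6J and at 0.206 FPKM in humanCD3eTg, below the mean of 1 FPKM used for the counts. Over its longest coding transcript of 7578 bases this corresponds to about 81 fragments (95% Poisson interval 64.3 to 101) and about 24 fragments (15.4 to 35.7). In plain FPKM this is 2.66-fold lower (1.64 to 4.32), close in size to B2m and Tapbp but with a much wider interval. On FPKM + 1 the log2 ratio was -0.36, and with a pseudocount of 0.1 FPKM it was -1.08, since a pseudocount near or above the level of a gene compresses its ratio.

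**Figure D2:**
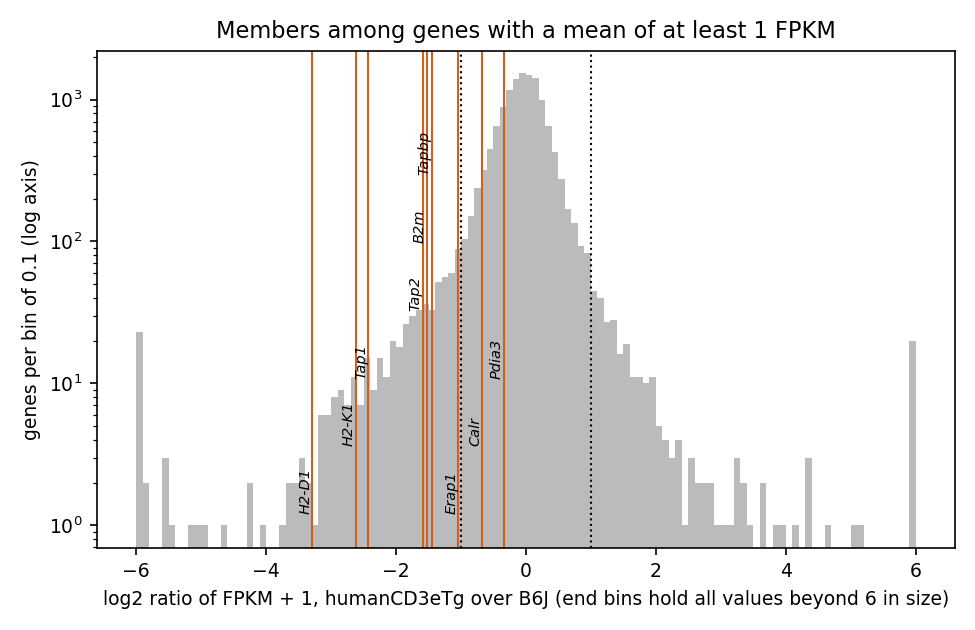
Histogram of log2 ratios of FPKM + 1 (humanCD3eTg over B6J) for the 13493 genes whose mean reached 1 FPKM (count on a log axis, bins of 0.1, end bins hold values beyond 6 in size), with a vertical line for each of the 9 members and dotted lines at 2-fold. The lines run from -3.29 (H2-D1) to -0.34 (Pdia3), all on the lower side of 0, while the genes centre at -0.05.

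Genes beside the members on the chromosome were examined to set the members against their surroundings, a comparison chosen after the members' values were known. The 2 nearest genes on each side whose mean reached 1 FPKM, by RefSeq order and with the members themselves passed over, gave 37 neighbours with a median log2 ratio of -0.06. At least 2-fold lower were 5 of them, where 4.47% of all genes were, and all 5 lie around Tap1 and Tap2. They are H2-DMb1, H2-Ab1 and H2-Aa, which serve class II presentation, and the immunoproteasome subunits Psmb8 and Psmb9. All 5 lie in the MHC, and the part of strain and read alignment in their values was not tested. Psmb8 had the lowest ratio of these (-3.44, from 17.3 to 0.681 FPKM). The neighbours of H2-K1 lay between -0.32 and 0.23: Ring1, a Polycomb gene, had 13.9 FPKM in B6J and 11.0 in humanCD3eTg, and Vps52, a gene of vesicle transport, had 24.3 and 25.3. The neighbours of H2-D1 lay between -0.49 and -0.06, among them the class I-like genes H2-Q1 at 3.49 and 2.19 FPKM and H2-Q2 at 2.64 and 2.48 FPKM. Beside Tapbp, Daxx stood at 22.1 and 13.4 FPKM, and the other 3 neighbours had ratios between 0.05 and 0.20.

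**Figure D3:**
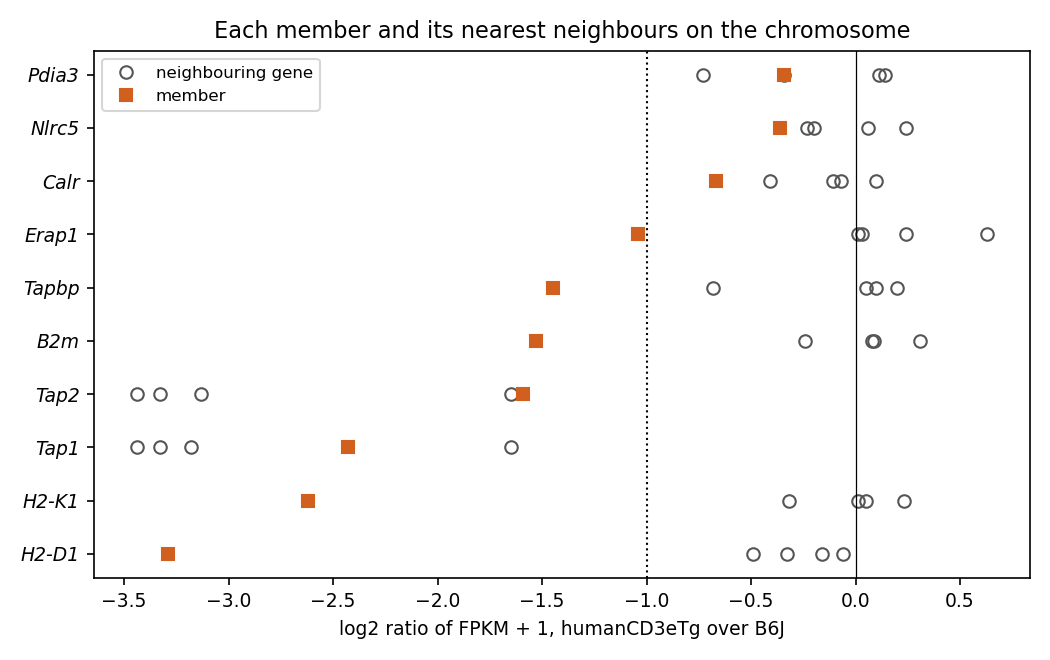
Log2 ratio of FPKM + 1 (humanCD3eTg over B6J) of each member (square) and of its 2 nearest genes on each side whose mean reached 1 FPKM (circles). Circles lie between -0.68 and 0.31 for H2-K1, H2-D1, B2m and Tapbp, and below -1 only for Tap1 and Tap2.

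Other genes of loading and trimming stayed within 2-fold. Of 18 measured genes, 12 were lower by any amount, where 55.4% of all genes were, and the median was -0.19. The largest ratio belonged to Uggt1, the glucosyltransferase that checks glycoprotein folding, at 15.2 and 8.0 FPKM (-0.85). Tapbpl, which encodes the tapasin relative TAPBPR, stood at 25.5 and 14.7 FPKM (-0.76). Lnpep, the endosomal trimming peptidase IRAP, stood at 6.51 and 3.92 FPKM (-0.61), Sec61a1, a subunit of the translocation channel, at 71.0 and 47.4 FPKM (-0.57), and Canx at 81.1 and 59.5 FPKM (-0.44). The cytosolic leucine aminopeptidase gene Lap3 went the other way, at 20.1 and 26.9 FPKM (0.40).

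Calr and Pdia3 lay within the range of other ER folding genes. Of 24 such genes 19 were lower (55.4% of all genes), none by 2-fold, with a median of -0.47 and a range from -0.83 to 0.77. Pdia6, a disulfide isomerase like Pdia3, stood at 133 and 74.2 FPKM (-0.83). Its relative Pdia4 stood at 87.0 and 52.4 FPKM (-0.72). Sdf2l1 stood at 37.6 and 21.4 FPKM (-0.78). Edem1 and Derl2 belong to ER-associated degradation. Edem1 had 14.4 and 8.10 FPKM (-0.76), and Derl2 had 8.97 and 4.69 FPKM (-0.81). The stress-induced transcription factor gene Ddit3 was higher, at 18.4 and 32.1 FPKM (0.77). Of 19 genes of this list with a promoter window, 5 held the ER stress element: Creld2, Dnajc3, Hsp90b1, Hspa5 and Pdia6.

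Regulators of class I genes differed unevenly. Past 2-fold lower were 6 of 24 genes (4.47% of all genes) and past 2-fold higher none (2.10% of all genes), with a median of -0.24. Ciita, the class II counterpart of Nlrc5, stood at 13.3 and 2.13 FPKM (-2.19). Ifngr1, which encodes a chain of the interferon gamma receptor, stood at 19.9 and 7.22 FPKM (-1.35), Irf9, of the interferon-stimulated gene factor, at 19.7 and 8.58 FPKM (-1.11), and Irf8 at 45.9 and 22.4 FPKM (-1.0). Ifnar1, of the type I interferon receptor, stood at 13.6 and 8.11 FPKM (-0.68). Other factors with sites in class I promoters, picked after their values were seen, were closer: Irf1 at 181 and 137 FPKM (-0.40), Rfx5 at 8.91 and 8.44 FPKM (-0.07) and Rela at 54.7 and 55.0 FPKM (0.01).

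**Figure D4:**
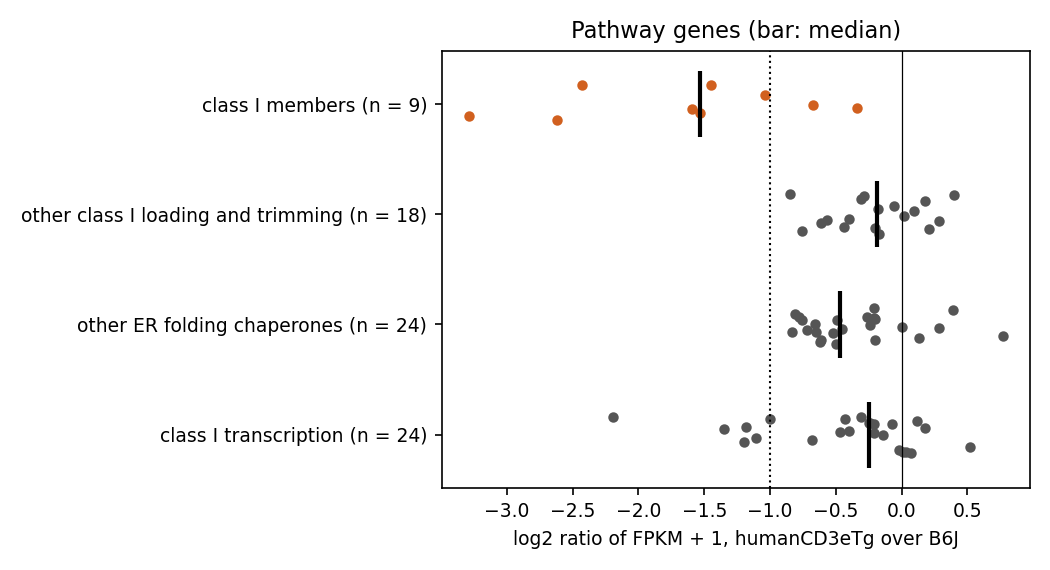
Log2 ratio of FPKM + 1 (humanCD3eTg over B6J) for genes whose mean reached 1 FPKM in 4 lists, 1 point per gene, with a bar at the median and a dotted line at 2-fold lower. The members centre at -1.53, other loading and trimming genes at -0.19, other ER folding genes at -0.47 and regulators at -0.24.

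Thymocyte, leukocyte and endothelial markers were mostly lower in humanCD3eTg, as the members were, while pigment and neural crest markers were mostly higher. Leukocytes and endothelium are known to carry class I. Counts of lower markers here include genes below 1 FPKM. Of all genes, 11679 of 25791 were lower without a filter, and 55.4% of those whose mean reached 1 FPKM. The 21 thymocyte markers summed to 203 FPKM in B6J and 14.4 in humanCD3eTg, with 19 lower there. Cd3d and Cd3g were among 8 listed at 0 in humanCD3eTg, where 2 were in B6J. The 20 pan-leukocyte markers summed to 237 and 89.7 FPKM (17 lower), with Ptprc, the gene of CD45, at 4.18 and 0.358 FPKM. Arhgdib alone gave 117 and 64.9 FPKM of these sums, and the other 19 came to 119 and 24.8 FPKM, 4.81-fold lower (left out after its values were seen). The 19 endothelial markers summed to 98.3 and 37.7 FPKM (all 19 lower), with Pecam1 at 8.01 and 1.10 FPKM. The 20 macrophage and dendritic cell markers summed to 33.2 and 23.2 FPKM (Csf1r at 0.667 and 1.24), and the 8 B cell markers to 11.4 and 6.33 FPKM. The 10 erythroid markers summed to 2611 and 1586 FPKM (5 lower), nearly all of it from the globin genes Hba-a1, Hba-a2 and Hbb-b1, which were 1.64-, 1.68- and 1.65-fold lower. In the other direction, 13 pigment and neural crest markers summed to 34.5 and 203 FPKM, led by Dct at 0.631 and 55.5 FPKM. The 14 mesenchymal markers were mixed: their sum was 203 and 238 FPKM, with the collagen gene Col1a1 at 35.5 and 66.0, while 10 of them were lower (Pdgfra at 0.676 and 0.348) and their median went from 3.28 to 2.29 FPKM. The part of these cells in the class I differences was not tested. The 16 thymic epithelial markers, which check the label of the sort, were all detected and summed to 8362 and 8558 FPKM, with Krt8 at 2183 and 2103, Epcam at 174 and 231 and Foxn1, the master regulator of thymic epithelium, at 91.1 and 43.7 FPKM. Within this list 10 of 16 were lower, near the share of all genes (55.4%). The median log2 ratio of the list was -0.10, and -0.05 over all genes, while its median level went from 110.1 to 86.1 FPKM. Krt5, a keratin of medullary epithelium, was higher, at 280.2 and 955 FPKM (log2 ratio 1.77), as was Cldn4 at 144 and 262 FPKM (0.86). The cortical genes Prss16, at 1409 and 992 FPKM, and Ccl25, at 977 and 632 FPKM, were lower, as was the Notch ligand gene Dll4, at 38.9 and 26.0 FPKM.

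Genes with the levels most like a member's, outside the lists, were found by distance in log2(FPKM + 1) over the 2 libraries. For H2-K1 these were Serpina3g (124 and 30.8 FPKM, distance 0.492), Gm6436 (158 and 18.1) and Rnu2 (152 and 40.2). For Tap1 they were LOC100504581 (40.0 and 6.95 FPKM, distance 0.081), Plac8 (38.2 and 4.74) and Gsdmd (36.6 and 4.45). For Nlrc5 they were Il10ra (0.547 and 0.211 FPKM, distance 0.006), A930012L18Rik and Tmc5. With 2 values per gene, such likeness carries little information.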

How the data were processed

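Each library has its own table, in which the authors deposited an FPKM value for each of 25791 gene symbols, per the file headers. Per the submitters' processing notes, TopHat2 2.0.8, Bowtie2 2.1.0 and Cufflinks 2.1.1 are listed with build mm9 and without roles. Annotation, strand use and filters were not given in the sources used here. Ratios were computed with Python 3.11.15, pandas 2.3.3 and numpy 2.4.6 as log2 of FPKM + 1, on all genes. They were tried on simulated pairs with 4-fold changes planted in well expressed genes only. That trial does not cover differences near 2-fold, as for Erap1, or scarce genes such as Nlrc5. Members and lists were chosen with earlier results of these data known. Genes named from each list were at most 6, by the largest ratio where the mean reached 5 FPKM, besides fixed defining markers. Some genes that this rule allows are not reported here. Groups follow the titles of the libraries.

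Depth was estimated from the step that 1 fragment adds to low FPKM values, using GENCODE transcript lengths less 210 bases. The step was searched between 0.04 and 0.09 FPKM over 1 kb, a range taken from earlier work on these files. The values 0.0496 (B6J) and 0.0639 (humanCD3eTg) put 60.7% of 410 and 59.9% of 339 low genes within 0.1 of a whole fragment. The depths are therefore rough, and no gene was tested with a count model. The Clopper-Pearson and Poisson intervals of the members rest on these depths and on each gene's longest coding transcript, so their widths are approximate. The steps' ratio of 1.29 lies near the most frequent ratio of low values, 1.26. Promoters are RefSeq windows of GRCm38.p6, a later build than the authors', so no coordinate was joined to the FPKM tables.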

Additional observations from a re-analysis of the deposited data

How the results depend on the processing

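All 50 member ratios under 5 alternative pseudocounts and scalings stayed below 0. A pseudocount cannot change the sign of a ratio, so only the scalings could have done so. They left the median of all genes between -0.08 and 0.02, so this count says little. The member median of -1.53 became -1.35 with a pseudocount of 5 FPKM, -1.48 with median centring, -1.51 with quantile normalization, -1.56 with totals rescaled after leaving out haemoglobin, mitochondrial and ribosomal protein genes, and -1.49 with no filter. Members at least 2-fold lower numbered 6 or 7 under every pseudocount, scaling and filter, 8 at a limit of 1.5-fold and 3 at 4-fold. Erap1 lay nearest the limit, with ratios from -1.10 to -0.83, and fell short of 2-fold with a pseudocount of 5 FPKM (-0.83), median centring (-0.99) and quantile normalization (-0.96). Nlrc5 ranged from -1.08 to -0.09. Regulators at least 2-fold lower numbered 3 instead of 6 with a pseudocount of 5 FPKM, which compresses low genes by construction. No scaling moved the median of all genes by over 0.1. No paired analysis was possible because each group has 1 library, and no library could be left out for the same reason. Depth limits Nlrc5 most.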
